A study of Mus musculus with 6 samples.

Results

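Neural progenitors carrying a trunk Hox code were selected on their own UMIs (unique molecular identifiers, 1 per captured transcript tag) from droplet single-cell RNA sequencing of mouse embryonic stem cells (ESC) on day 6 of a differentiation towards mesoderm. A barcode counted as a cell when 1000 or more genes had UMIs in it and no more than 10% of its UMIs were mitochondrial. A progenitor held UMIs of 3 or more of the 6 neural genes Sox1, Sox2, Sox3, Pax6, Hes5 and Fabp7 and of at most 2 of the 5 neuron genes Tubb3, Elavl3, Dcx, Stmn2 and Nhlh2, and a trunk Hox progenitor also held 2 or more UMIs of Hoxb9, Hoxc8 and Hoxc9 together. This rule chose 137 of 3196 kept cells of day 6, or of 7096 kept cells in all 6 libraries. Of these, 5 came from the cKO library and 132 from the parental library. They are set against the 322 progenitors with 0 trunk Hox UMIs, 11 from the cKO and 311 from the parental library.

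The cKO library was made from ESC labelled Oct1_cKO and the parental library from ESC labelled Parental, both on day 6. Oct1 is a ubiquitous DNA-binding protein of the POU class, and Pou2f1 is its gene. Cells of both genotypes had spent 2 days on gelatin in N2B27 medium with Bmp4 and then 4 days in a DMEM-based medium with the Wnt enhancer Rspo3 and the BMP receptor inhibitor LDN-193189. Each genotype was 1 library of 10x 5′ tags, so no difference has a replicate check, and which exons of Pou2f1 were deleted, how, and in how many clones are not given in the sources used here. The cells are called neural from UMIs of Sox2 and the other genes of the rule, although the labelled lineage is mesodermal.

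Hox genes lie in 4 clusters, HoxA to HoxD, and are switched on in the order in which they lie along each cluster, so that paralog groups with low numbers mark the hindbrain and neck and groups 6 to 10 mark the trunk. In the embryo the spinal cord grows from bipotent progenitors at the caudal end, where Cdx factors activate trunk Hox genes, and dividing progenitors then take up dorsal or ventral identities marked by Pax, Dbx, Msx and Nkx factors. Members of the Cdx family are homeodomain proteins whose binding sites often hold the letters TTTATG or TTTATTG.

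Promoter windows of 3 Hox genes outside the rule are shown because these genes were among the furthest apart between trunk Hox progenitors and progenitors without trunk Hox UMIs, as was Cdx2. Each gives the 250 bases before the annotated start, 5′ to 3′ on the strand of the gene, from RefSeq on GRCm38.p6. Capitals mark the letters TTTATG, or a second form of the site, TTTATTG, and both strands were searched, so that a capital run can be the reverse complement. No matches overlapped. The Hoxb8 window is chr11:96281655-96281904 on the + strand, the Hoxa7 window chr6:52218574-52218823 on the - strand and the Hoxa9 window chr6:52227371-52227620 on the - strand.
Hoxb8: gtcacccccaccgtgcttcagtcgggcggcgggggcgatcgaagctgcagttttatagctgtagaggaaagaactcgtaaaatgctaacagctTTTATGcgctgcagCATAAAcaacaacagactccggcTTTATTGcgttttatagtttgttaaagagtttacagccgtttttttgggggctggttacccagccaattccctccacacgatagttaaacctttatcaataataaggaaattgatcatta
Hoxa7: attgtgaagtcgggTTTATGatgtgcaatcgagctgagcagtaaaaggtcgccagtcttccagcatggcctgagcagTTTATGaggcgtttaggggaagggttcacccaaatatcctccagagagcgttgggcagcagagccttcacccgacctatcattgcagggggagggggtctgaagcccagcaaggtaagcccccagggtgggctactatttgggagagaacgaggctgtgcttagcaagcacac
Hoxa9: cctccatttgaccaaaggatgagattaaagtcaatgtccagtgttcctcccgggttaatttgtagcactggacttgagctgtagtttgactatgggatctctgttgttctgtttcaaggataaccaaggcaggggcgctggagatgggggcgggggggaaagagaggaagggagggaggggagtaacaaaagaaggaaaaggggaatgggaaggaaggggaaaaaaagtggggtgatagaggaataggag
The Hoxb8 window held 3 matches, which began 157, 143 and 120 bases before the start, and the Hoxa7 window held 2, which began 236 and 173 bases before it. The Hoxa9 window held 0. TTTATG was found on either strand in 10.8% of 32851 promoter windows of this length and TTTATTG in 4.20%, and either was found in 14.3%. Of 43 measured Hox symbols, 24 had an entry, with 26 windows, of which 5 held a match. Hoxb9, Hoxc8, Hoxc9 and Hoxc6 had no entry. A match describes the letters only, since these data hold no measure of binding.

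The 6 libraries held between 41665721 and 85102600 UMIs, and kept cells of day 6 had medians of 30925 UMIs in the cKO and 36219 in the parental library. Pairs of libraries shared between 0 and 2 kept barcodes, and the day 6 pair shared 0. Pou2f1 had 16.0 CPM (UMIs per 1e6) over the kept cKO cells of day 6 (95% interval 15.1 to 17.0) and 30.9 CPM over the parental cells (29.6 to 32.3), and a 5′ tag may lie outside the deleted part. All intervals here cover counting error only. A further limit concerns cells with UMIs of 2 or more of 8 mesodermal transcription factor genes (Tcf15, Meox1, Meox2, Foxc1, Foxc2, Uncx, Tbx18 and Pax1). These were all 5 cKO trunk Hox progenitors, 41 of 132 parental ones (31.1%, 23.3 to 39.7) and 20 of 311 parental progenitors without trunk Hox UMIs (6.43%, 3.97 to 9.76). Among parental trunk Hox progenitors they were 22 of 28 cells with 100000 or more UMIs but 1 of 21 cells below 30000, and whether these barcodes held more than 1 cell was not tested. Results are therefore also given for the 91 parental members under 2 mesodermal genes, set against the 291 progenitors without trunk Hox UMIs that passed the same limit.

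Cells of the parental library also differed in the share of UMIs from whole chromosomes. A score, the mean log2 share of chromosomes 1, 6 and 8 minus that of chromosome 11 relative to the median cKO cell of day 6, was above 0.25 in 53 of the 132 parental trunk Hox progenitors, below the negative of that limit in 52 and between in 27. Of the 311 parental progenitors without trunk Hox UMIs, 203 were above, 84 below and 24 between. The score is a range and not a cell type, and 7 trunk Hox progenitors lay within 0.05 of a limit.

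Progenitors of any Hox state, and with them the trunk Hox progenitors, were fewer in the cKO library than in the parental library. Trunk Hox progenitors made up 0.303% of 1650 kept cKO cells (Clopper-Pearson 95% interval 0.0985 to 0.706) and 8.54% of 1546 kept parental cells (7.19 to 10.0), a difference of -8.24 percentage points (Newcombe interval -9.74 to -6.88). All progenitors made up 0.970% of cKO cells (0.555 to 1.57) and 29.9% of parental cells (27.6 to 32.2). Among progenitors alone, 5 of 16 cKO cells (31.25%, 11.02 to 58.7) and 132 of 462 parental cells (28.6%, 24.5 to 32.9) carried the trunk Hox code. That difference was 2.68 percentage points with an interval of -14.9 to 27.3, so no difference was detectable at 16 cKO progenitors. With every cell thinned to 10000 UMIs and shallower cells left out (558 cKO and 371 parental), 1 of 1092 cKO cells (0.0916%) and 85 of 1175 parental cells (7.23%) passed all gates.

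The 5 cKO cells differed from one another. They held 40452, 46759, 107205, 129568 and 263831 UMIs and, in that order, 12, 3, 27, 58 and 40 trunk Hox UMIs, so all but 1 held at least 12, far above the limit of 2. The cell with 46759 UMIs held 108 UMIs of Fabp7, the brain fatty acid binding protein of radial glia, while the others held 0. The cell with 263831 UMIs held 3373 UMIs of Acta2 and 2315 of Tagln, which encode smooth muscle proteins, and 2 UMIs of Sox2. Mesodermal genes with UMIs numbered 3, 2, 4, 2 and 3 in the same order, and 0 of the 5 cells remained once such cells were left out. Of 16 surface epithelium genes, 6, 4, 6, 11 and 10 had UMIs in these cells, again in that order. The cell with 129568 UMIs held 57 UMIs of the keratin gene Krt8. Levels summed over these cells are therefore values of 5 barcodes, and genes were not counted between the genotypes. Their Hoxb9 level was 105 CPM, their Hoxc8 level 25.5 CPM and their Hoxc9 level 107 CPM, against 229, 93.5 and 83.9 CPM in parental trunk Hox progenitors. Crabp1, a retinoic acid binding protein, had 20.4 CPM in the cKO cells and 576 CPM in the parental ones.

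Parental trunk Hox progenitors were mostly far from the limit that chose them. The 132 cells held between 4561 and 256941 UMIs with a median of 48800, and progenitors without trunk Hox UMIs had a median of 34717. Trunk Hox UMIs ranged from 2 to 125 with a median of 21.5, or 425 per 1e6 UMIs of the cell (25.2 to 1308). Just inside the limit were 5 cells with 2 UMIs, and just outside it were 19 progenitors with 1 UMI, which are in neither group. A further 20 cells held 3 to 11 UMIs, and 107 held 12 or more. All 3 genes of the rule had UMIs in 104 cells, 2 of them in 17 and 1 in 11. Hoxb9 was found in 131 of the 132 cells, Hoxc8 in 114 and Hoxc9 in 112.

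**Figure D1:**
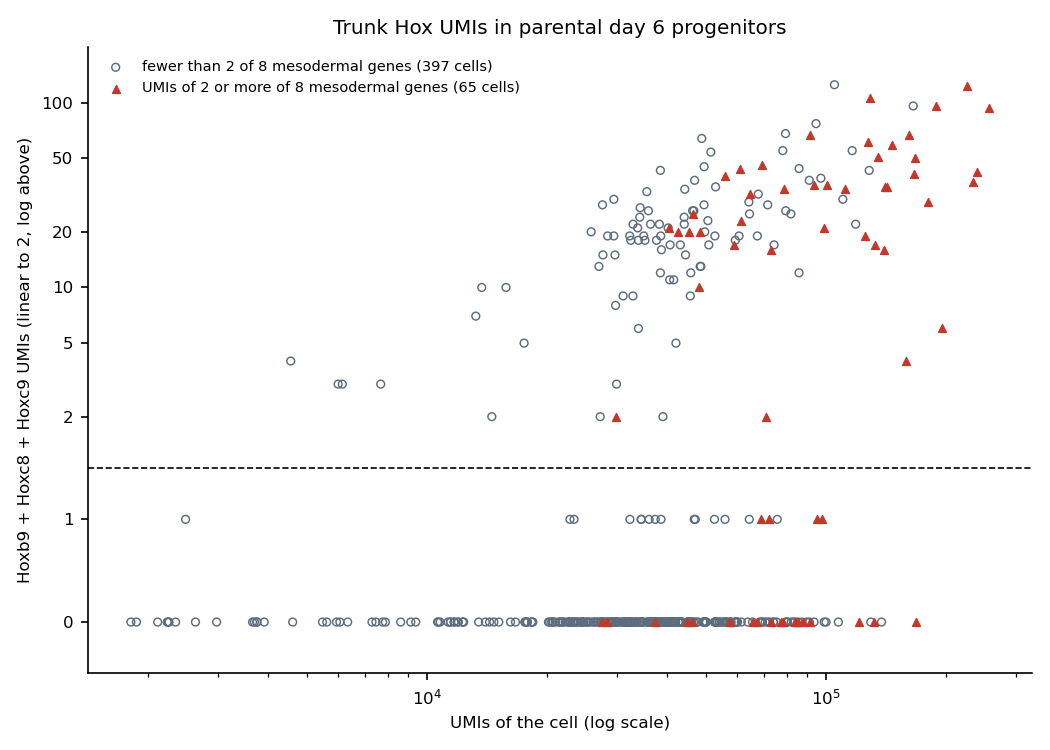
Trunk Hox UMIs (Hoxb9, Hoxc8 and Hoxc9 together, linear to 2 and logarithmic above) against all UMIs of a cell (log scale) for the 462 parental progenitors of day 6; each point is a cell, triangles hold UMIs of 2 or more of 8 mesodermal genes, and the dashed line is the limit of the rule. Most cells lie either at 0 or at 12 and more, and triangles are frequent among members of 100000 or more UMIs (22 of 28).

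Other classes of day 6 cells are given for comparison, and whether any of them lacks these genes was not tested. Of 359 parental cells with UMIs of 5 or more surface epithelium genes and of at most 1 neural and 1 mesodermal gene, 10 held 2 or more trunk Hox UMIs (2.79%, 1.34 to 5.06, median 44570 UMIs per cell), against 132 of 462 progenitors (28.6%, median 38628 UMIs). The summed level of the 3 genes was 169 CPM over all parental progenitors and 6.58 CPM over the epithelial cells. Of parental cells with UMIs of 3 or more neural and 3 or more neuron genes, 36 of 104 held 2 or more trunk Hox UMIs (34.6%, 25.6 to 44.6), with 189 CPM. Mesodermal cells, with UMIs of 3 or more of the 8 mesodermal genes and at most 1 neural gene, held them in 26 of 192 cKO cells (13.5%, 9.04 to 19.2) and 52 of 169 parental cells (30.8%, 23.9 to 38.3).

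The other Hox genes differed by their paralog group. Across the 36 Hox genes outside the rule, 22 had at least 5 CPM in the higher of the groups, and 15 of these were 2-fold or more higher in parental trunk Hox progenitors than in progenitors without trunk Hox UMIs, while 0 were 2-fold lower. Over all 9674 genes with at least 5 CPM outside the rule, 2.00% were higher and 1.75% were lower by that measure, and the median log2 ratio of all genes was 0.00. The cells were chosen on 3 Hox genes, so these values describe the chosen cells and carry no test. By group, 4 of 4 measured genes of groups 9 to 13 were higher (median log2 ratio 6.40), 8 of 9 of groups 5 to 8 (3.15) and 3 of 9 of groups 1 to 4 (0.42). The lists held 14, 10 and 12 genes. The 4 measured genes of groups 9 to 13 passed 5 CPM only in trunk Hox progenitors, so their direction follows from that limit. In groups 5 to 8 only Hoxa5 and Hoxb8 passed it in both groups of cells.

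In the HoxA cluster on chromosome 6, Hoxa9 had 52.6 CPM in trunk Hox progenitors and 0.0826 CPM, a single UMI, in progenitors without trunk Hox UMIs. Hoxa9 UMIs were seen in 73.5% and 0.322% of these cells. Hoxa7, whose promoter window with 2 matches is printed above, had 70.3 CPM (65.0 to 76.0) in trunk Hox progenitors and 2.48 CPM (1.67 to 3.54) in the others, a log2 ratio of 4.83 (4.30 to 5.41). Hoxa10, at the lumbar end of the code, had 9.41 CPM in trunk Hox progenitors and 0 UMIs in the others, which makes the log2 ratio at least 5.25 with a floor of 3 UMIs over the group. Hoxa5 had 37.9 CPM in trunk Hox progenitors and 10.7 CPM in the others. At the anterior end the order turned, since Hoxa2, a hindbrain gene, had 44.1 CPM in trunk Hox progenitors and 88.0 CPM in the others (log2 ratio -0.999, -1.17 to -0.83). Hoxa3 had 20.2 and 22.0 CPM and Hoxa4 8.44 and 10.5 CPM, with intervals of the log2 ratio that included 0.

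In the HoxB cluster on chromosome 11, Hoxb8 had 59.6 CPM (54.8 to 64.8) in trunk Hox progenitors and 8.68 CPM (7.10 to 10.5) in the others, a log2 ratio of 2.78 (2.48 to 3.096). Hoxb7 had 31.5 and 3.55 CPM, Hoxb6 19.7 and 0.744 CPM and Hoxb5 15.2 and 1.16 CPM. The anterior genes differed less. Hoxb4 had 77.8 CPM in trunk Hox progenitors and 58.1 CPM in the others, Hoxb3 42.4 and 27.8 CPM, and Hoxb2 102 and 143 CPM. Hoxb1, the most 3′ gene of the cluster, had 35.5 and 11.4 CPM.

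In the HoxC cluster on chromosome 15, Hoxc6 had 64.3 CPM in trunk Hox progenitors and 0.248 CPM, 3 UMIs, in the others. Hoxc10 had 15.6 and 0.0826 CPM, Hoxc5 5.09 and 2.64 CPM and Hoxc4 36.7 and 14.8 CPM. In the HoxD cluster on chromosome 2, Hoxd8 had 10.5 and 1.32 CPM and Hoxd9 9.09 and 0.413 CPM. The symbol Hoxd4 stands for 2 entries of the annotation and is left out of the plot of Hox levels. Hoxa6, Hoxd1 and Hoxd3 stayed below 5 CPM in both groups. Neighbouring Hox genes have overlapping transcripts, and how the authors' counting treated shared tags is not given in the sources used here. For the same reason the antisense transcript Hoxb5os, with 291 CPM in trunk Hox progenitors and 1.40 CPM in the others, and Hoxaas3, with 101 and 7.60 CPM, cannot be told apart from the Hox genes that they overlap.

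**Figure D2:**
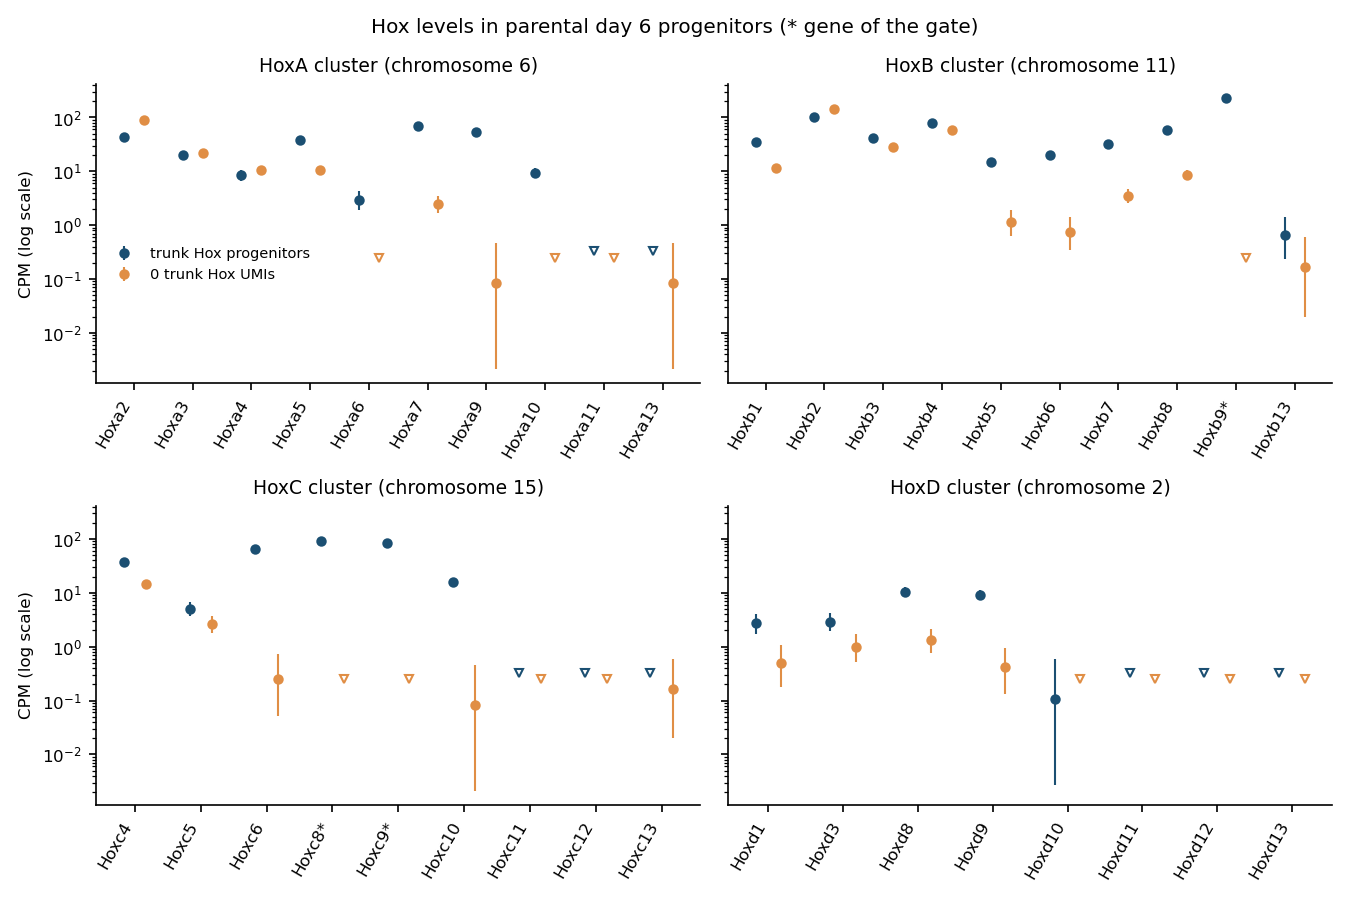
Level of Hox genes in CPM (log scale) with exact Poisson 95% intervals in the parental day 6 library, in trunk Hox progenitors (132 cells, left) and progenitors with 0 trunk Hox UMIs (311 cells, right), by cluster; asterisks mark the genes of the rule and open triangles a count of 0, drawn at the floor of 3 UMIs. Most genes of groups 2 to 4 lie within 2-fold, with Hoxc4 (36.7 and 14.8 CPM) and Hoxd3 beyond it, and the widest gaps, as in Hoxa9 and Hoxc6, lie in groups 6 to 10.

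Hox genes past group 10 were near 0. UMIs of group 9 genes, which include 2 of the rule, were present in all 132 cells, and UMIs of group 10 genes in 55 (41.7%). Groups 11 and 12 had UMIs in 0 of 132 cells, where 3 counts would be a share of 2.27% of cells with a UMI and say nothing of expression below detection, and group 13 had UMIs in 5 cells (3.79%) against 1.61% of progenitors without trunk Hox UMIs. At the other end, 85.2% of progenitors without trunk Hox UMIs held UMIs of group 2 and 69.5% of group 4, but 2.25% of group 6 and 13.5% of group 7.

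Genes of the caudal stem zone, from which the trunk spinal cord grows, did not move together. Cdx2, the caudal homeodomain factor, had 15.2 CPM (12.8 to 17.9) in trunk Hox progenitors and 0.165 CPM, 2 UMIs, in the others. Cdx2 UMIs were found in 27.3% of trunk Hox progenitors and 0.643% of the others, and in 5.47% and 0% after thinning to 10000 UMIs. Cdx4 had 5.84 CPM and 0 UMIs, a log2 ratio of at least 4.56. Sp5, a Wnt target, was lower, with 1.84 CPM in trunk Hox progenitors and 8.10 CPM in the others, and Greb1, Fgf8 and Sp8 differed by less than 2-fold. For Fgf8 the sign turned without cells of 2 or more mesodermal genes, with a log2 ratio of 0.24 over all cells and -3.75 without them, and 2 of 6 genes were then lower. Of 14 genes of this list 6 were measured, 2 were higher and 1 was lower, with a median log2 ratio of 0.16. Cdx2 and Cdx4 passed 5 CPM only in trunk Hox progenitors and Sp5 only in the others, so these directions follow from that limit. T (Brachyury), which marks the bipotent progenitors, had 0.649 CPM in trunk Hox progenitors and 0.909 CPM in the others, Nkx1-2, which marks the same cells, had 2.60 CPM and 0 UMIs, and Tbx6, of paraxial mesoderm, had 0.541 and 0.413 CPM.

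Several markers of the head had few UMIs in either group. Otx2, of the forebrain and midbrain, had 0.216 CPM in trunk Hox progenitors and 1.90 CPM in the others, and Egr2, of hindbrain rhombomeres, had 0.108 and 0.165 CPM. Of 17 forebrain and midbrain genes only Six6 (7.79 and 1.82 CPM) and En1 (8.66 and 3.14 CPM) passed 5 CPM, and both were 2-fold higher. Both passed it only in trunk Hox progenitors, so their direction follows from that limit. Irx2, of the hindbrain list, had 12.99 CPM in trunk Hox progenitors and 39.1 CPM in the others, while Irx3 (109 and 129 CPM) and Irx5 (91.9 and 168 CPM) were less than 2-fold apart. Of 8 measured hindbrain genes 1 was higher and 2 were lower, with a median log2 ratio of -0.56.

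Progenitors with and without the trunk code both carried dorsal factors, and most of those measured differed by less than 2-fold. Pax3, of the dorsal neural tube, had 61.9 CPM (56.9 to 67.2) in trunk Hox progenitors and 110 CPM (104 to 116) in the others, and Pax7 17.2 and 29.6 CPM, both less than 2-fold apart. Pax3 or Pax7 UMIs were found in 100 of the 132 cells. Gsx1, which marks dorsal interneuron progenitors and is also used in the forebrain, stood furthest apart, with 1.19 CPM in trunk Hox progenitors and 20.99 CPM in the others (log2 ratio -4.14, -5.16 to -3.28). Msx1, of the dorsal midline, had 5.84 and 1.32 CPM, Wnt4 22.2 and 8.02 CPM, and Id4, an inhibitor of bHLH factors, 17.1 and 63.0 CPM. Of 28 dorsal genes 17 were measured, of which 2 were higher and 4 lower, with a median log2 ratio of -0.38. Over all 9674 genes with at least 5 CPM outside the rule, 2.00% were higher and 1.75% were lower. Msx1 passed 5 CPM only in trunk Hox progenitors and Gsx1 only in the others, so their directions follow from that limit.

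Markers of ventral domains were scarce. Shh had 0 UMIs in trunk Hox progenitors, and 0 of 132 cells held Nkx2-2 UMIs. Foxa2, of the floor plate, and Olig2, of motor neuron progenitors, each had UMIs in 3 cells. Nkx6-1, of ventral progenitors, had 7.58 CPM (5.91 to 9.57) in trunk Hox progenitors and 0.496 CPM (0.182 to 1.08) in the others, with UMIs in 13 of 132 and 2 of 311 cells. Dbx1, which marks progenitors in the middle of the neural tube, had 22.6 and 28.5 CPM. Dbx1 UMIs were found in 26.5% and 13.8% of cells, but in 12.5% and 11.6% after thinning, so no order is read from the shares. Of 7 measured intermediate genes 0 were higher and 3 were lower, among them Wnt7a (3.90 and 11.6 CPM) and Prdm13 (5.84 and 13.4 CPM). Without cells of 2 or more mesodermal genes the log2 ratio of Prdm13 was -0.49 in place of -1.20.

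Of the 4 measured progenitor factors of the POU class 3 family, 3 were 2-fold lower in trunk Hox progenitors. Pou3f2 (Brn2) had 58.7 CPM (53.8 to 63.8) in trunk Hox progenitors and 171 CPM (164 to 179) in the others, Pou3f3 (Brn1) 23.5 and 77.0 CPM and Pou3f4 9.63 and 24.2 CPM. The log2 ratio of Pou3f4 was -1.33, and -0.92 without cells of 2 or more mesodermal genes. Pou3f1 had 13.6 and 22.0 CPM, with a log2 ratio of -0.69, or -1.63 without those cells. Pantr1, a noncoding RNA gene beside Pou3f3, had 61.9 and 192 CPM. Fabp7, which belongs to the rule and is given as description, had 48.8 and 327 CPM. Sox2 and Sox1 also belong to the rule and are given as description. Sox2 had 238 CPM (228 to 248) in trunk Hox progenitors and 228 CPM (220 to 237) in the others, and Sox1 had 62.7 and 80.3 CPM. Of 32 measured general progenitor genes 1 was higher, the adhesion gene Ncam1 with 88.4 and 35.5 CPM, and 5 were lower, with a median log2 ratio of -0.37.

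Some genes of neuronal commitment were also lower. Neurog2 had 1.84 CPM (1.07 to 2.95) in trunk Hox progenitors and 8.10 CPM (6.58 to 9.87) in the others, Neurog1 4.87 and 12.1 CPM and Insm1 5.84 and 12.8 CPM. The rule itself allowed UMIs of at most 2 neuron genes in both groups. Detection depends on depth, and the median depths were 48800 UMIs in trunk Hox progenitors and 34717 in the others. The same limit can therefore act unequally on the groups, and its part in these values was not tested. Of 9 measured genes of this list 0 were higher and 4 were lower, with a median log2 ratio of -0.83, and without cells of 2 or more mesodermal genes 2 of 9 were lower. S phase and mitosis genes were close. Of 18 measured genes in each list 0 were higher and 0 were lower, with median log2 ratios of -0.01 for S phase and -0.15 for mitosis.

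Retinoic acid, which patterns the spinal cord, is read here from its carriers and enzymes. Crabp1 had 576 CPM (561 to 592) in trunk Hox progenitors and 1431 CPM (1409 to 1452) in the others, a log2 ratio of -1.31, or -0.92 without cells of 2 or more mesodermal genes. Cyp26b1, which degrades retinoic acid, had 6.60 and 29.5 CPM. Aldh1a2, which makes it, had 8.98 and 1.40 CPM, and without cells of 2 or more mesodermal genes its log2 ratio was 0.66 in place of 2.68. The receptors Rara (21.8 and 26.3 CPM) and Rarb (15.2 and 14.6 CPM) differed by less than 2-fold. Of 12 measured genes of this list 3 were higher and 2 lower, and without mesodermal cells 0 of 9 were higher and 1 was lower. Of 14 measured genes of the FGF and ERK response only Spry1 was 2-fold higher (33.0 and 13.1 CPM) and only Fgfr3 2-fold lower (9.20 and 22.8 CPM), and of 9 measured Wnt response genes 0 were higher and 1, Sp5, was lower.

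**Figure D3:**
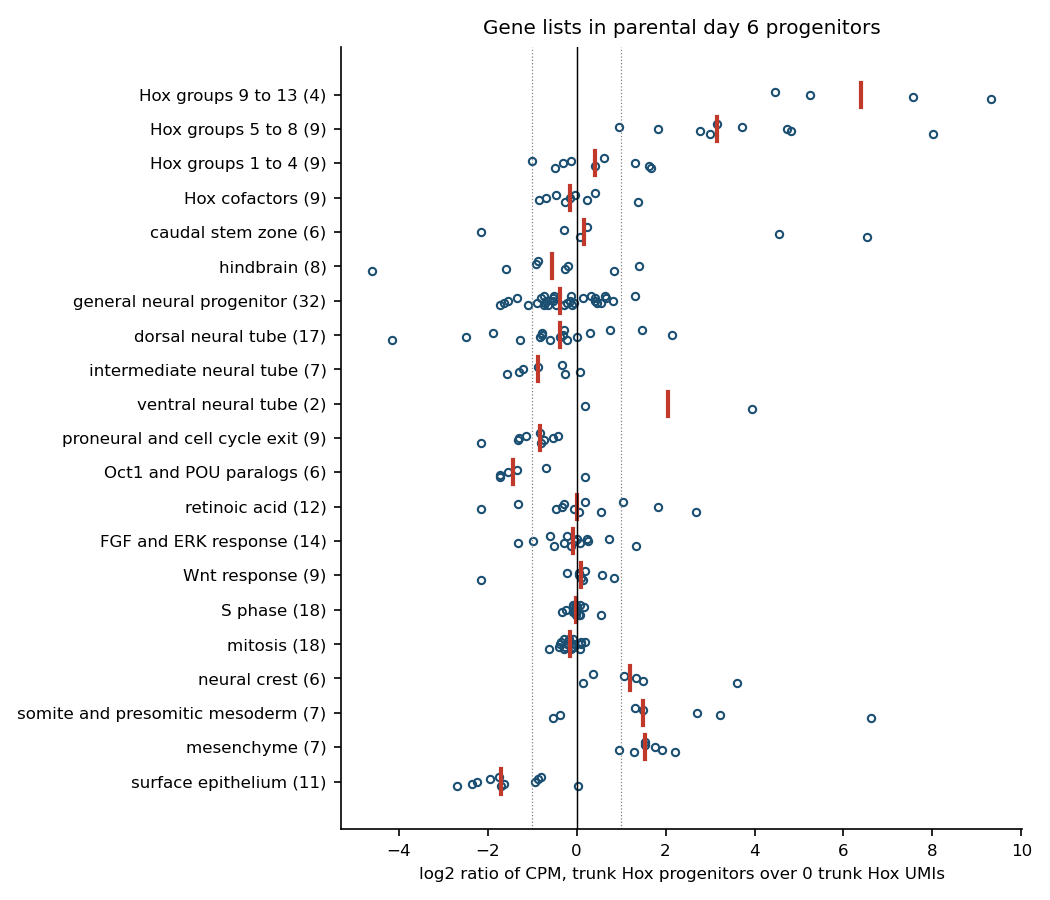
Log2 ratio of CPM, trunk Hox progenitors over progenitors with 0 trunk Hox UMIs in the parental day 6 library, for members of 21 gene lists with at least 5 CPM in the higher group; points are genes, red bars are list medians, dotted lines mark a 2-fold difference and the number measured stands in brackets. Medians run from 6.40 for Hox groups 9 to 13 down to -1.69 for surface epithelium.

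Markers of other lineages moved with the trunk code. Of 7 measured somite genes 5 were higher, with a summed level of 205 CPM over the list in trunk Hox progenitors and 70.0 CPM in the others, and without cells of 2 or more mesodermal genes 0 of 2 were higher. That loss follows from the choice of cells for Meox1, Tcf15, Foxc1, Foxc2 and Uncx, which mark those cells. Of 7 measured mesenchyme genes 6 were higher. Without those cells 3 of 6 measured were higher, namely Col1a1, Acta2 and Col3a1, and the last was not 2-fold higher over all cells (log2 ratio 0.95, and 2.68 without those cells). Acta2, of smooth muscle, had 585 CPM in trunk Hox progenitors and 154 CPM in the others over all cells but a log2 ratio of -1.11 without cells of 100000 or more UMIs. Msgn1, of presomitic mesoderm, had 0 UMIs in both groups. Surface epithelium genes went the other way, with 7 of 11 lower and a summed level of 128 and 278 CPM, as in Epcam with 12.8 and 49.1 CPM. Of these, Cldn7, Cdh1, Krt7, Cldn6 and Wnt6 passed 5 CPM only in progenitors without trunk Hox UMIs, so their direction follows from that limit. Before thinning, UMIs of Epcam and Krt8, also among the lower genes, were found in a larger share of trunk Hox progenitors than of the others. Neural crest genes were higher in 4 of 6, namely Ngfr (9.09 and 0.744 CPM), Tfap2b (53.2 and 20.99 CPM), Ets1 and Snai2, and in 2 of 4 without mesodermal cells, while the crest markers Sox10 and Foxd3 had 0.758 CPM and 0 UMIs in trunk Hox progenitors. Ngfr, Ets1 and Snai2 passed 5 CPM only in trunk Hox progenitors, so their direction follows from that limit, and Tfap2b passed it in both groups of cells. The part of other cell types in the results of neural genes was not tested.

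Over all 5927 genes outside the rule with at least 20 CPM in the higher group, 74 (1.25%) were 2-fold or more higher in trunk Hox progenitors and 55 (0.928%) were lower. Besides Hox genes, those furthest higher were Actc1, F11r, Ifitm1, Fndc5, Nrp2, Meox1, Des and Cnn1. F11r, which encodes the junction protein JAM-A, had 75.4 CPM (69.9 to 81.2) in trunk Hox progenitors and 9.34 CPM (7.70 to 11.2) in the others, with UMIs in 87.9% and 15.4% of cells. Its log2 ratio was 3.01, and 3.345 without cells of 2 or more mesodermal genes. Ifitm1, an interferon-induced membrane protein, had 105 and 13.9 CPM, Fndc5, the precursor of irisin, 37.0 and 4.88 CPM, and Nrp2, a semaphorin receptor, 27.9 and 3.72 CPM, and the log2 ratios of all 3 stayed above 2 in each chromosome group, without mesodermal cells and without cells of 100000 or more UMIs.

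The ratios of the muscle genes among them, and of Meox1, fell without the deepest cells. Actc1, a cardiac actin, had 42.1 CPM in trunk Hox progenitors and 3.80 CPM in the others, but its log2 ratio of 3.47 was 0.26 without cells of 100000 or more UMIs. For Des, an intermediate filament of muscle, the ratio was 2.69 over all cells and -1.74 without them, for Cnn1, a smooth muscle calponin, 2.54 and 0.79, and for the somite factor Meox1 2.71 and 0.86. Actc1 UMIs were found in 11.4% of trunk Hox progenitors and 4.18% of the others. The shares were 22.0% and 10.6% for Des, 14.4% and 6.43% for Cnn1 and 31.8% and 6.11% for Meox1.

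Genes furthest lower were Gsx1, Cyp26b1, Gpm6b, Lix1, Epcam, Id4, Mt3, Pou3f3, Pantr1, Zfp536, Krt8, Dpysl3, Itgb8, Npas3 and Pou3f2. For Epcam and Krt8 the share of cells with UMIs before thinning was larger in trunk Hox progenitors. It was 14.39% against 11.58% of the others for Epcam and 26.52% against 18.65% for Krt8. After thinning to 10000 UMIs the shares were 5.47% and 8.10% for Epcam and 9.38% and 5.63% for Krt8. Gpm6b, a neural membrane glycoprotein, had 4.65 and 20.8 CPM, Mt3, a brain metallothionein, 12.01 and 44.1 CPM, and Zfp536, a repressor of neuronal differentiation, 7.36 and 24.1 CPM. Dpysl3, which acts in growth cones, had 34.3 CPM in trunk Hox progenitors and 103 CPM in the others. Of these 15 genes all had negative ratios in both chromosome groups, without mesodermal cells and without cells of 100000 or more UMIs.

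**Figure D4:**
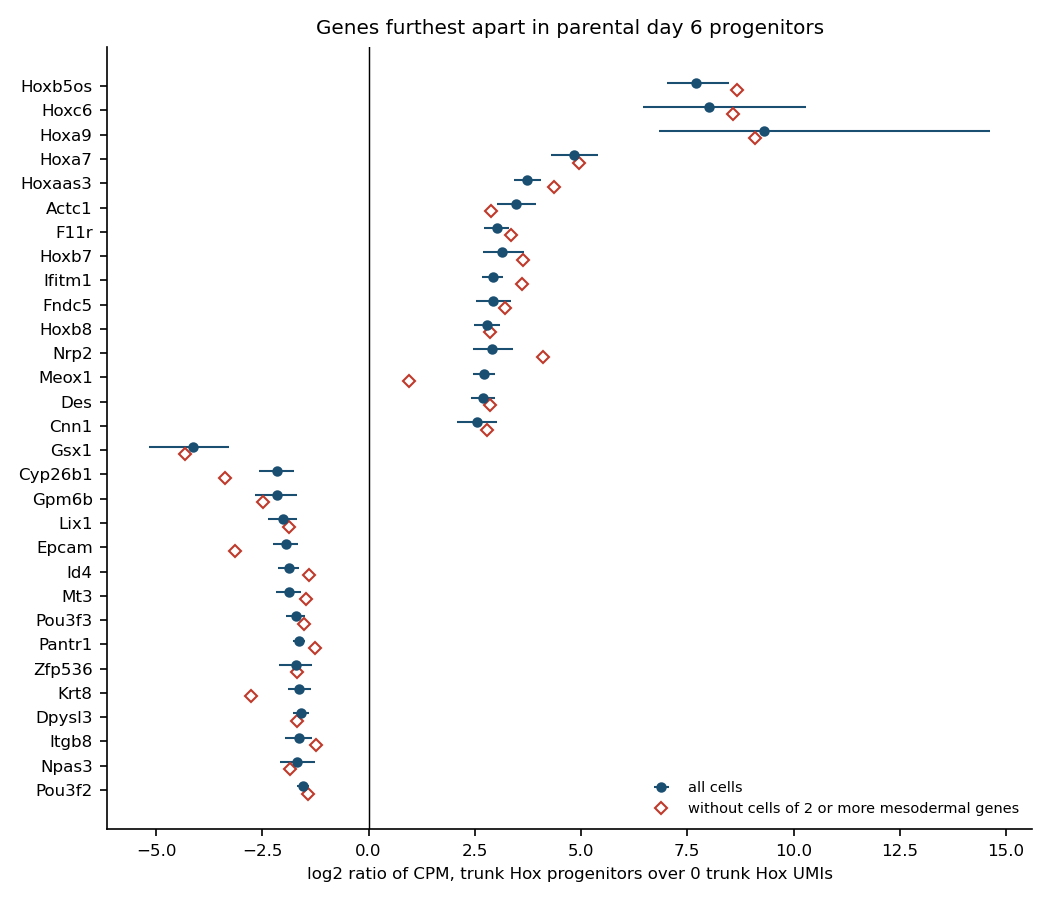
Log2 ratio of CPM (trunk Hox progenitors over progenitors with 0 trunk Hox UMIs, parental day 6) with exact 95% counting intervals for the 15 genes furthest higher and the 15 furthest lower over all cells (circles), and the ratio without cells of 2 or more mesodermal genes (diamonds). The ratio of Meox1 is 0.95 without those cells and that of Nrp2 4.10.

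Trunk Hox progenitors varied among themselves, first along the body axis. Among the 91 members under 2 mesodermal genes, 34 held UMIs of Hoxa10, Hoxc10 or Hoxd10 and 57 held none, with median depths of 46105 and 38312 UMIs. Hoxd9 had 13.7 CPM in cells with group 10 UMIs and 1.62 CPM in cells without, a log2 ratio of 3.08 (1.56 to 5.05). In the same cells Cdx2 had 20.7 and 4.04 CPM, and Hoxa9 63.7 and 42.0 CPM. Hoxa7, of an earlier group, had 51.1 CPM in cells with group 10 UMIs and 96.2 CPM in cells without, and Hoxc8 had 104 and 139 CPM. Cdx2 was found in 44.1% of cells with group 10 UMIs and 8.77% of cells without. Pax3 was alike in level, with 57.2 and 55.0 CPM, while Pou3f2 had 47.0 and 84.9 CPM and Dbx1 18.2 and 40.8 CPM. These splits rest on detection in cells of unequal depth and carry no test.

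**Figure D5:**
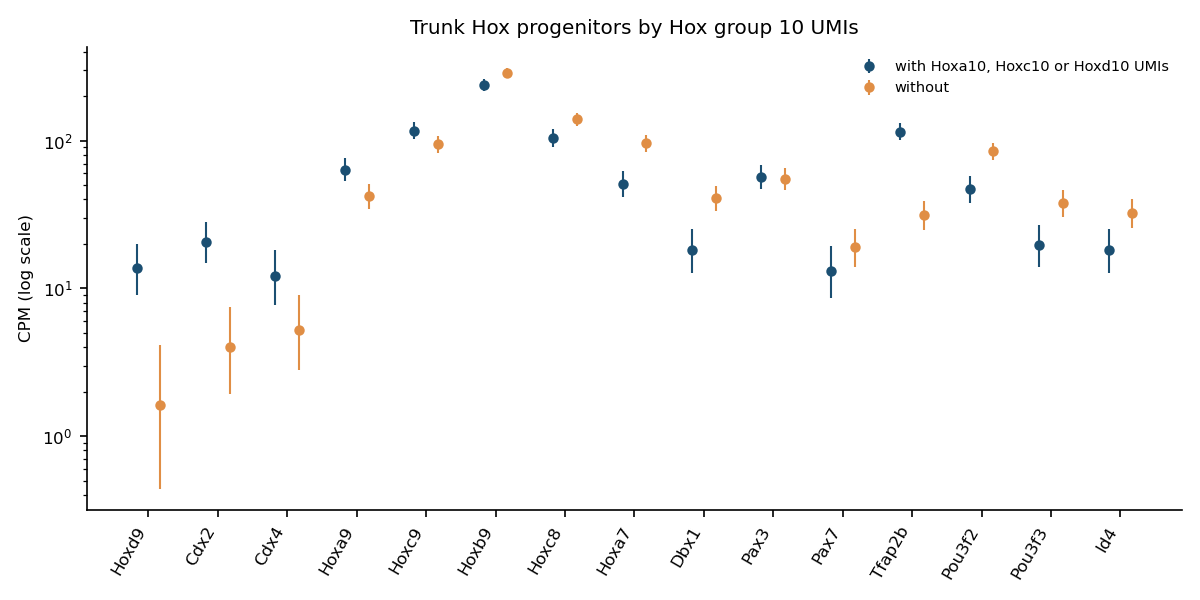
Level of 15 genes in CPM (log scale, exact Poisson 95% intervals) in parental trunk Hox progenitors under 2 mesodermal genes, for the 34 cells with UMIs of a group 10 Hox gene (left) and the 57 without (right). Hoxd9, Cdx2 and Tfap2b are higher in cells with such UMIs, and Hoxa7, Dbx1 and Pou3f2 lower.

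They also varied in dorsoventral genes. Of the same 91 cells, 65 held Pax3 or Pax7 UMIs and 26 did not, with median depths of 44220 and 31848 UMIs. Cells with them had more Crabp1 (921 and 281 CPM) and Fabp7 (84.4 and 3.54 CPM), and less Nkx6-1 (3.61 and 30.7 CPM) and Hoxc10 (9.44 and 49.6 CPM). Msx1 and Prdm13 had UMIs only in cells with Pax3 or Pax7, at 8.32 and 12.2 CPM, against 0 UMIs in the 26 cells without. Tfap2b, an AP-2 factor of the dorsal neural tube and crest, and Dbx1 were mostly apart. Dbx1 had 11.9 CPM in the 32 cells with Tfap2b UMIs and 43.1 CPM in the 59 without, and Pax3 had 84.6 and 37.2 CPM.

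Both chromosome groups of the parental library held trunk Hox progenitors. They were 53 of 264 progenitors with chromosomes 1, 6 and 8 high (20.1%, 15.4 to 25.4), 52 of 143 with chromosome 11 high (36.4%, 28.5 to 44.8) and 27 of 55 between (49.1%, 35.4 to 62.9), with median depths of 35834, 42904 and 79808 UMIs. Among cells under 2 mesodermal genes the shares were 18.5%, 29.7% and 37.0%. Summed HoxC genes on chromosome 15, most of whose UMIs are of the rule genes Hoxc8 and Hoxc9, had 456 CPM (431 to 482) in members with chromosomes 1, 6 and 8 high and 247 CPM (232 to 264) in members with chromosome 11 high. HoxB genes, on chromosome 11 and with the rule gene Hoxb9 among them, had 625 and 663 CPM, and HoxA genes, on chromosome 6, 328 and 243 CPM. Hoxc8 had 157 and 64.7 CPM, and of genes outside the rule Hoxc6 had 83.1 and 59.2 CPM and Hoxc10 24.3 and 8.16 CPM. Some 2-fold differences from progenitors without trunk Hox UMIs were not met within 1 chromosome group. With chromosome 11 high the log2 ratio was 0.48 for Tfap2b, 0.71 for Spry1, 0.88 for Wnt4, 0.90 for Six6, 0.85 for En1 and -0.92 for Pou3f3, and with chromosomes 1, 6 and 8 high it was 0.55 for Ngfr and 0.68 for Des. For Dbx1 the sign turned, at 0.96 with chromosome 11 high and -1.92 with chromosomes 1, 6 and 8 high. It also turned for 4 anterior Hox genes, which had positive log2 ratios with chromosome 11 high (Hoxa3 1.31, Hoxa4 2.09, Hoxb2 0.34 and Hoxb4 1.10) and negative ones with chromosomes 1, 6 and 8 high (Hoxa3 -0.28, Hoxa4 -1.20, Hoxb2 -1.07 and Hoxb4 -0.12). Whether the chromosome groups differ in more than these UMI shares was not tested.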

How the data were processed

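The deposited files are matrices of raw counts, the UMIs of 31053 features in each barcode of 6 libraries. They were made by the authors with Cell Ranger on mm10, per the submitters' processing notes, with software version 3.1.0 per the file headers. Strand use and doublet removal are not given in the sources used here, and no doublet caller was run. Kept barcodes had at least 1000 genes with UMIs and at most 10% mitochondrial UMIs. Counts were summed over the cells of a group within a library and divided by the UMIs of the same cells (CPM), so a level is weighted towards deep cells. Totals per library are given with the results.

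With 1 library per group there was no test. Levels carry exact Poisson 95% intervals, shares Clopper-Pearson intervals, differences of shares Newcombe intervals and log2 ratios exact conditional binomial intervals, with 3 UMIs over a group as the floor for a count of 0. A gene was counted as higher or lower at a 2-fold ratio with at least 20 CPM in the higher group, or 5 CPM within gene lists, leaving out the 14 genes of the rule. Where a list gene passed 5 CPM in only 1 of the compared groups, its direction follows from that limit. The ratio used to name genes had 1 CPM added to each group. Members, lists and this naming rule were chosen with earlier results of these data known. Named were up to 15 genes furthest higher and 15 furthest lower with UMIs in at least 10% of cells of the higher group, Hox genes, Pou2f1, up to 4 genes a list and the genes of the rule. Further list members and the genes of the splits were named after their values were seen. Some genes that this rule names are not reported here.

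Counting genes between cKO and parental members was planned but not run with 5 cKO cells. The steps were tested on simulated counts. Gene positions came from GENCODE M21 on GRCm38 and promoter sequences from RefSeq on GRCm38.p6. Python 3.11.15, numpy 2.4.6, pandas 2.3.3, scipy 1.17.1, matplotlib 3.10.9 and edgeR 4.0.16 (TMM factors only, as an alternative scaling) were used.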

Additional observations from a re-analysis of the deposited data

Results flagged for a closer look

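Trunk Hox UMIs were also present before differentiation, in libraries outside the day 6 comparison. In undifferentiated ESC, 99 of 530 kept cKO cells (18.7%, Clopper-Pearson 95% interval 15.4 to 22.3) and 175 of 1396 kept parental cells (12.5%, 10.8 to 14.4) held 2 or more UMIs of Hoxb9, Hoxc8 and Hoxc9. A count of 0 would allow a share of up to 0.566% in cKO and 0.215% in parental ESC. On day 3 the shares were 0.487% of 1026 cKO cells and 1.58% of 948 parental cells. The highest number of such UMIs in an ESC was 14 in the cKO and 12 in the parental library, against up to 125 in a parental trunk Hox progenitor of day 6. Hoxb9 had 8.01 CPM in cKO ESC and 7.58 CPM in parental ESC. Of the gates for progenitors and trunk Hox together, 7 cKO and 6 parental ESC passed, and 1 cKO and 6 parental cells of day 3.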

How the results depend on the processing

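The alternatives without mesodermal cells, without cells of 100000 or more UMIs and within 1 chromosome group were chosen after seeing the data. Over 14 alternatives each, the median log2 ratio of Hox genes outside the rule lay between 1.52 and 2.92, against 2.31, and that of the caudal stem zone list between -0.24 and 2.25, against 0.16. The 74 genes higher became 193 at 5 CPM, 31 at 50 CPM and 267 with no minimum and 1 CPM added to each group, and the 55 genes lower became 169, 17 and 222. Other alternatives gave 51 to 91 genes higher. With cells of no neuron gene 146 genes were lower, with chromosome 11 high 116 and with a chromosome score within 0.25 of 0 only 30. The dorsal median was -1.32 with chromosome 11 high, against -0.38. The forebrain and midbrain median rests on 2 genes in the comparison over all cells. It was 1.78, and became 0.88 in cells of no neuron gene, 2.13 against deep cells without trunk Hox UMIs, 2.56 without cells of 2 somite or 5 epithelium genes, 0.042 with a score within 0.25 of 0, 2.47 without mesodermal cells, 3.08 with chromosomes 1, 6 and 8 high and -0.73 with chromosome 11 high.

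The share of kept cells was 0.0606% in the cKO and 2.39% in the parental library with no neuron gene allowed, and 0% and 5.89% without mesodermal cells. It was 0.0916% in the cKO library after thinning to 10000 UMIs and 11.6% in the parental library under stricter limits on genes and mitochondrial UMIs per cell. The share of progenitors was 0% of 11 in the cKO and 22.9% in the parental library without mesodermal cells, and in the parental library 38.1% with no neuron gene allowed and 22.4% after thinning. The cause of these shifts was not tested. No paired analysis was possible because each group is 1 library and the labels give no shared replicate numbers. Every interval covers counting error only, and 1 library per genotype leaves differences between cultures unmeasured.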

Other observations

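Cofactors that bind DNA with Hox proteins were similar in parental trunk Hox progenitors and in parental progenitors without trunk Hox UMIs. Of 9 measured Pbx, Meis and Pknox genes, 1 was 2-fold higher, Pknox2 with 16.0 and 6.20 CPM, and 0 were lower, with a median log2 ratio of -0.14. Meis1 had 80.2 CPM in trunk Hox progenitors and 130 CPM in the others, and Meis2 307 and 232 CPM. Polycomb and trithorax genes, whose products keep Hox clusters silent or active, were within 2-fold in 16 of 16 cases, with a median of -0.28. Among them Ezh2, the main H3K27 methyltransferase, had 369 and 422 CPM, and Jarid2, which recruits it, 30.3 and 51.1 CPM. Without cells of 2 or more mesodermal genes Jarid2 was 2-fold lower, with a log2 ratio of -1.07.

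Remnants of pluripotency were low in both groups. Of 10 genes 3 passed 5 CPM, and they passed it only in progenitors without trunk Hox UMIs. That these 3 were lower in trunk Hox progenitors therefore follows from the limit. Dppa5a had 1.52 CPM in trunk Hox progenitors and 19.7 CPM in the others, Pou5f1 2.92 and 9.67 CPM and Utf1 2.27 and 6.86 CPM. Among 7 measured glial genes, 1 was 2-fold higher, the matrix gene Tnc with 8.23 and 0.744 CPM, and Sox9 had 25.8 and 23.1 CPM. Of 9 measured stress genes, 1 was 2-fold higher, Atf3 with 21.5 and 8.60 CPM. Endothelial and blood genes summed to 6.06 CPM in trunk Hox progenitors and 4.63 CPM in the others.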
